A study of Mus musculus with 2 samples.

Results

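The transcripts described here are those of 10 core circadian clock genes, Arntl, Npas2, Clock, Per1, Per2, Per3, Cry1, Cry2, Nr1d1 and Dbp, taken by symbol from the 33640 genes of the deposited table. They were chosen by the TPM values of these same libraries, in which the Per genes and Arntl differ in opposite directions, so each difference below is a description and none was tested. The RNA came from mitral valves of mice aged 5 months. The wild-type group (WT) and the group heterozygous for the C1039G allele of Fbn1 (Fbn1C1039G/+) each gave 1 library, made from 8 valves of males and females pooled before extraction. The gene product, fibrillin-1, builds the microfibrils of the extracellular matrix, and this missense allele is carried in the germline as a mouse model of Marfan syndrome. With 1 library per genotype there are no replicates, no error on any value and no p-value, and genotype cannot be told apart from pool or library. The labels do not give the time of day at which the valves were taken, and whether it was the same for both pools is not known here.

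The circadian clock is a feedback loop of transcription that runs in most cells, those of the heart included. BMAL1 (the product of Arntl) pairs with CLOCK or its relative NPAS2, binds E-box sequences and switches on the Per and Cry genes, whose proteins return to the nucleus and block BMAL1 and its partner. The same complex switches on Nr1d1, whose product REV-ERB-alpha represses Arntl and Npas2 through ROR elements, and Dbp, which activates genes through D-boxes. In mouse tissues the transcripts of Arntl and Npas2 therefore peak at about the opposite time of day to those of Dbp and the Per genes, while Clock cycles little.

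In the heterozygous pool Arntl and Npas2 were lower and the 3 Per genes were higher, while Clock was nearly level. Levels are TPM (an abundance corrected for transcript length and scaled to a fixed library total), with the wild-type pool first. Differences are log2(TPM + 1), heterozygous minus wild type, a scale that understates what happens in low genes. Of the 10 genes 7 were higher and 3 lower, where 64.9% and 35.1% of the 17004 genes averaging 1 TPM or more were. Per3 was at least 2-fold higher (background 4.81%). Arntl and Npas2 were both at least 2-fold lower (background 1.72%). At 1.5-fold, all 3 Per genes were higher (background 15.4%) and no further gene was lower (background 4.73%). All 10 genes had a TPM of at least 1 in both pools.

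**Figure D1:**
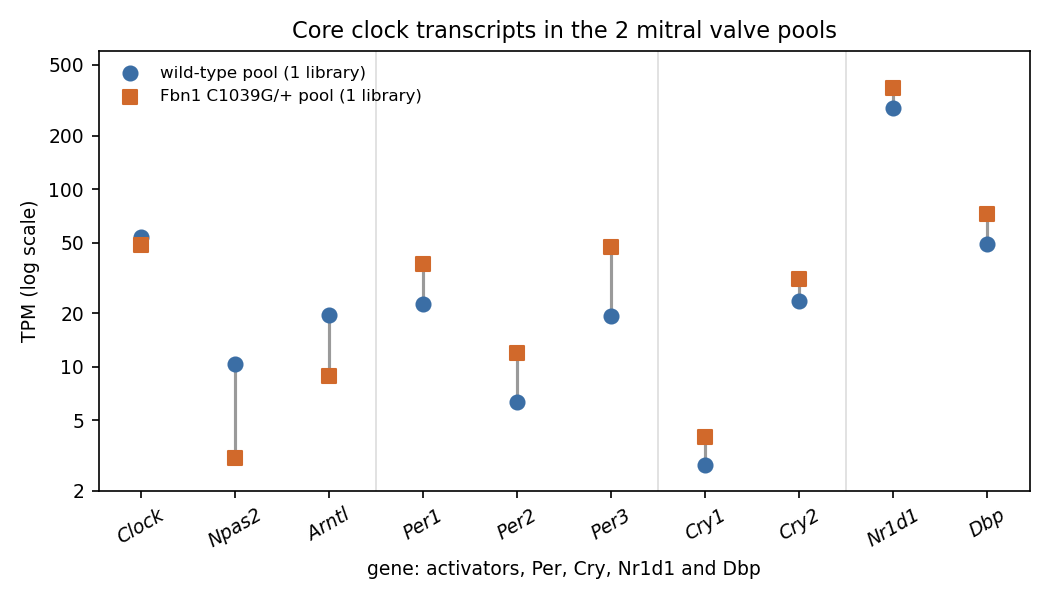
TPM of the 10 core clock genes on a log axis, with 1 library per genotype and no error bars; circles are the wild-type pool, squares the Fbn1 C1039G/+ pool, and grey lines join the values of a gene. Npas2 lies at 10.4 and 3.07 TPM and Arntl at 19.6 and 8.87 TPM, the Per genes lie higher in the mutant pool, and Clock is close to 50 TPM in both.

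Promoter sequence is shown for the genes in which letters of the classical clock elements were found, since the members fall into arms that are known for these elements. The windows run from 250 bases before to 50 bases after each transcription start (RefSeq, GRCm38.p6), and 9 of the 10 members matched 1 or more. Per2 is named only. The letters searched on both strands were CACGTG (E-box), CACGTT (a variant E-box), TTANGTAA (D-box), TNGGTCA (ROR element) and TGACGTCA (cyclic AMP element). The form TAGGTCA, which lies within TNGGTCA, was added after the windows had been searched. No other matches in these genes overlapped. Among all 32851 RefSeq windows, 7.15% held the E-box, 4.68% its variant, 2.32% the D-box, 11.0% the ROR element, 2.61% its TAGGTCA form and 1.79% the cyclic AMP element. Each line reads 5′ to 3′ on the strand of the gene, with the matched letters in capitals.
Per1 E-box: gcacccaagtcCACGTGcagggatgtgtgt
Cry1 E-box: gtgccggtggtCACGTGgggtgcatgccgc
Cry1 variant E-box: cacacttcagaAACGTGaggtgccggtggt
Cry2 variant E-box: cacatggtgggAACGTGagggggcggagcc
Nr1d1 variant E-box: gcacagatctcAACGTGccggctgctggaa
Per3 D-boxes: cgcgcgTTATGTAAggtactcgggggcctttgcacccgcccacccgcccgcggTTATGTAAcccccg
Arntl ROR element: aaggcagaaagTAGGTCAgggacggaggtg

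The E-box of Per1 (chr11:69098772-69098801, plus strand) began 166 bases before the earlier of its 2 RefSeq starts, which lies inside the GENCODE span of the gene given below. That of Cry1 (chr10:85185096-85185125, minus strand) began 60 bases before its start. The Cry1 variant (chr10:85185115-85185144, minus strand) began 79 bases before, the Cry2 variant (chr2:92434217-92434246, minus strand) 166 and the Nr1d1 variant (chr11:98775387-98775416, minus strand) 28. Per3 held 2 identical D-boxes, 205 and 158 bases before its start, in the printed stretch chr4:151044810-151044876 on the minus strand. The Arntl element (chr7:113207530-113207559, plus strand) began 30 bases after the later of its 2 annotated starts. Arntl also held TTGGTCA and TCGGTCA further upstream, and Per3 and Cry2 each held a TNGGTCA match on the opposite strand. None of the 5 elements was found in the windows of Npas2, Clock or Dbp, which says only that these letters are not in those windows. Such matches are descriptions of sequence and were not measured as sites.

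The activators of the loop differed among themselves. Arntl, whose product BMAL1 is the indispensable partner in these complexes, was at 19.6 and 8.87 TPM, a log2 difference of -1.06 (chr7:113207465-113314126, mm10, plus strand, ENSMUSG00000055116.8). Npas2, which can stand in for Clock, was at 10.4 and 3.07 TPM, a difference of -1.48 (chr1:39193731-39363236, plus strand, ENSMUSG00000026077.15). Clock was at 53.5 and 48.7 TPM, a difference of -0.14 (chr5:76209868-76304792, minus strand, ENSMUSG00000029238.11). Arntl and Npas2 were thus well below their wild-type levels and Clock was hardly below its own. The mean TPM of 13464 genes lay within the range of the 10 members, from 3.42 to 328. Among them Npas2 had the 69th lowest difference, Arntl the 129th and Clock the 2820th. The lower quartile of the differences of those genes was -0.096, so Clock lay below it. In that range 1.04% of genes were lower by 2-fold or more and 3.57% by 1.5-fold or more. Npas2 made up 16.2% of the summed TPM of Clock and Npas2 in wild-type and 5.93% in heterozygous valves. The TPM ratio of Clock to Npas2 was 5.17 and 15.9.

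The Per genes, which encode the period proteins of the repressor complex, were all higher in the heterozygous pool. Per1, a member that also responds quickly to hormones and other stimuli, was at 22.6 and 37.8 TPM, a difference of 0.72 (chr11:69095217-69109960, plus strand, ENSMUSG00000020893.17). Per2 was at 6.36 and 12.0 TPM, a difference of 0.82 (chr1:91415982-91459324, minus strand, ENSMUSG00000055866.9). Per3, which is dispensable for the central rhythm in mice, was at 19.4 and 47.4 TPM, a difference of 1.25 (chr4:151003652-151044665, minus strand, ENSMUSG00000028957.12). Per3 thus differed most of the 3 and Per1 least. With a pseudocount of 5, Per2 (0.58) differed less than Per1 (0.64), and Per3 still differed most. In the same range of mean TPM, Per3 had the 248th highest difference, Per2 the 761st and Per1 the 1073rd. Of those genes 3.36% were higher by 2-fold or more and 13.2% by 1.5-fold or more. The summed TPM of the 3 genes was 48.3 and 97.2, and Per3 made up 40.1% of it in the wild-type and 48.8% in the heterozygous pool. Per1 was the most abundant of the 3 in the wild-type pool and Per3 in the heterozygous pool.

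The cryptochromes, the partners of the period proteins and the strongest repressors of BMAL1 complexes, differed less. Cry1 was the scarcest member in the wild-type pool, at 2.79 and 4.04 TPM, a difference of 0.41 (chr10:85131700-85185064, minus strand, ENSMUSG00000020038.10). Cry2 was at 23.3 and 31.2 TPM, also a difference of 0.41 (chr2:92403646-92434043, minus strand, ENSMUSG00000068742.11). Neither reached 1.5-fold. The TPM ratio of Cry2 to Cry1 was 8.33 and 7.73. Under quantile normalization (both libraries given the same distribution of values) the change in that ratio turned sign, from -0.11 to 0.06 on the log2 scale, so no direction is given for it.

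The direct outputs of the activators, Nr1d1 and Dbp, were higher as well, below 1.5-fold. Among the 13464 genes in the same range of mean TPM, Dbp had the 1985th highest difference and Nr1d1 the 3695th. The upper quartile of the differences of those genes was 0.39, so many genes differed as much as Nr1d1. Nr1d1, the repressor of Arntl and Npas2, was the most abundant member at 287 and 369 TPM, a difference of 0.36 (chr11:98767932-98775333, minus strand, ENSMUSG00000020889.11). Dbp was at 49.1 and 72.7 TPM, a difference of 0.56, just under the 0.58 that marks 1.5-fold (chr7:45705088-45710203, plus strand, ENSMUSG00000059824.12). Both genes share exonic bases with a gene on the opposite strand, and counting by strand is not given in the sources used here, so reads from the shared bases cannot be told apart. For Nr1d1 this was 9.67% of its exonic bases, shared with the thyroid hormone receptor gene Thra, which was at 87.3 and 69.7 TPM. For Dbp it was 29.3%, shared with the sphingosine kinase gene Sphk2, which was at 13.7 and 14.8 TPM. Smaller overlaps, with transcripts that have no row of that symbol in the table, covered 1.07% of the exonic bases of Arntl and 3.43% of those of Cry2.

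The order of the levels differed between the pools, although without replicates no neighbouring pair in it can be separated by a spread. In the wild-type pool the order from high to low was Nr1d1, Clock, Dbp, Cry2, Per1, Arntl, Per3, Npas2, Per2 and Cry1. In the heterozygous pool it was Nr1d1, Dbp, Clock, Per3, Per1, Cry2, Per2, Arntl, Cry1 and Npas2. Arntl and Per3 lay next to each other in the wild-type pool and 4 places apart in the heterozygous pool. Ratios between genes within a library do not depend on how that library was scaled as a whole. The TPM ratio of Per3 to Arntl was 0.988 in the wild-type and 5.35 in the heterozygous pool, that of Per1 to Arntl 1.15 and 4.26, and that of Per2 to Arntl 0.324 and 1.35. The ratio of Dbp to Arntl was 2.51 and 8.19, and that of Nr1d1 to Arntl 14.6 and 41.7. The ratio of Clock to Arntl, 2.73 and 5.49, was higher too, since the lower Arntl raises the ratio to it of any gene that is level. The summed TPM of the 3 Per genes over that of Arntl and Npas2 was 1.61 and 8.14, a 5.056-fold change. That sum leaves out Clock, the most abundant of the 3 activators. With Clock added to Arntl and Npas2 the ratio was 0.578 and 1.604, a smaller change of 2.775-fold.

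Most genes had slightly more TPM in the heterozygous pool, with a median difference of 0.14 over the 17004 genes. The median over the 10 clock genes was 0.41. These were chosen by the same values and ran from -1.48 to 1.25, so this median describes neither arm. Quantile normalization moved the median of all genes by 0.16, to -0.01. It also moved the share of higher genes among those at least 2-fold different from 73.6% to 53.9%, and among those at least 1.5-fold different from 76.4% to 51.6%. Under that scaling the difference was -1.22 for Arntl, -1.69 for Npas2 and -0.26 for Clock. It was 1.11 for Per3, 0.65 for Per2 and 0.57 for Per1, the last just below 1.5-fold. Cry1 (0.17), Cry2 (0.27), Nr1d1 (0.35) and Dbp (0.42) lay closer to 0. All 10 genes kept their direction as reported under each of the 7 alternatives that gave them a value. A change of pseudocount or of the filter on low values cannot turn a direction. Only centring on the median, quantile normalization and the removal of gene classes with rescaling could have done so.

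**Figure D2:**
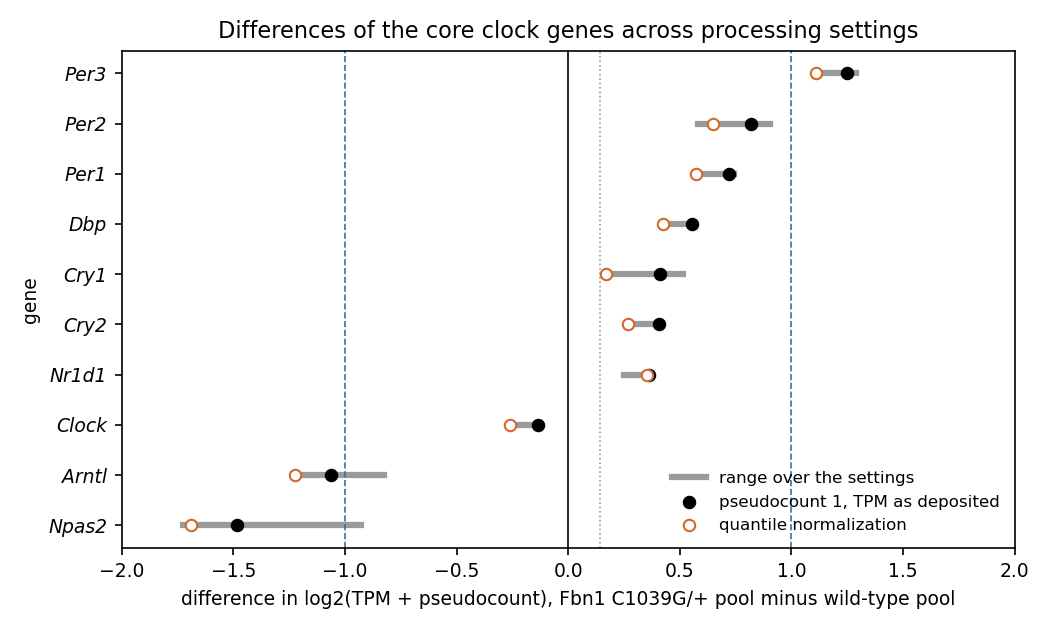
Difference in log2(TPM + pseudocount), Fbn1 C1039G/+ pool minus wild-type pool, for each core clock gene: black points are the reported values, open points quantile normalization and grey bars the range over all settings. Dashed lines mark 2-fold and the dotted line the median of all genes (0.14); no grey bar crosses 0, and the bars of Arntl and Npas2 extend to -0.83 and -0.93, inside the 2-fold line.

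**Figure D3:**
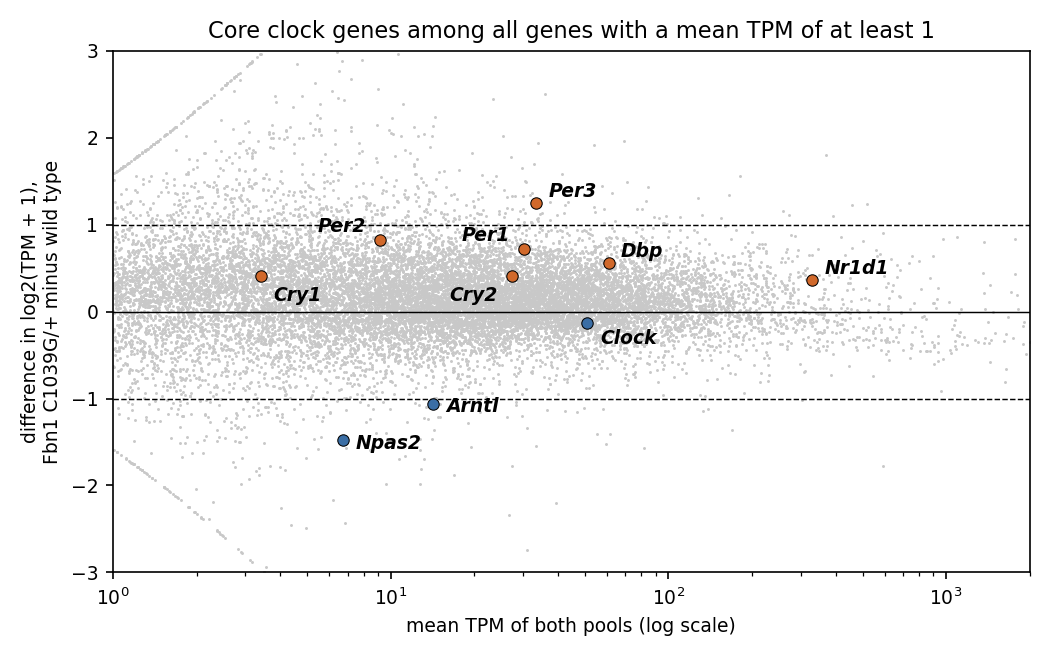
Mean TPM of both pools (log axis) against the difference in log2(TPM + 1) for genes averaging 1 TPM or more (grey), of which 94 of 17004 lie outside the axes, and the 10 core clock genes (orange where higher in the mutant pool, blue where lower). Dashed lines mark 2-fold; Per3 lies above the upper line, Arntl and Npas2 lie below the lower line, and Clock lies near 0.

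Other transcription factors of the clock loops differed in both directions. Of 10 such genes 3 were higher and none lower by 1.5-fold or more (background 15.4% and 4.73%), with none at 2-fold and a median of 0.32 against 0.14 over all genes. Nr1d2, the paralog of Nr1d1, was at 41.7 and 70.8 TPM, a difference of 0.75. Bhlhe40, a repressor at E-boxes, was at 85.0 and 133 TPM, a difference of 0.64, and its paralog Bhlhe41 was at 25.2 and 32.8 TPM. Arntl2, the paralog of Arntl, was at 64.4 and 97.5 TPM, a difference of 0.59, and was thus more abundant than Arntl in both pools and different in the opposite direction. Tef, a relative of Dbp, was at 84.3 and 109 TPM, a difference of 0.36. The third member of that family, Hlf, was at 45.8 and 35.4 TPM, a difference of -0.36, so the Dbp family did not differ in 1 direction. Nfil3, a repressor that competes with DBP at D-boxes, was at 13.0 and 8.49 TPM, a difference of -0.57. Under quantile normalization the difference of Nfil3 was -0.72, past 1.5-fold. Rora and Rorb encode activators of Arntl and Npas2, and Rora was at 67.3 and 73.6 TPM and Rorb at 1.14 and 1.61 TPM. Ciart, a repressor of BMAL1 complexes, was nearly level at 8.82 and 8.63 TPM, a difference of -0.03 (-0.19 under quantile normalization). None of these 10 genes changed direction under the alternatives that could turn it. Under quantile normalization Nr1d2 alone was at least 1.5-fold higher.

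Genes that modify clock proteins, such as kinases, ubiquitin ligases and histone enzymes, differed little. Of 20 such genes 1 was at least 1.5-fold higher and none lower (background 15.4% and 4.73%), with a median of 0.19. That gene was Timeless, a replication fork protein named for the fly clock gene, at 51.7 and 102 TPM, a difference of 0.97. The most abundant were the corepressor Ncor1, which acts with REV-ERB proteins, at 225 and 257 TPM, and Sfpq, a partner of the period proteins, at 134 and 175 TPM. In this list 17 genes were above 0 and 3 below (64.9% of all genes were above 0), but 5 of the 20 changed sign between scalings. Under quantile normalization the ubiquitin ligase gene Fbxl21 (-0.60) was at least 1.5-fold lower. The kinase gene Csnk1e, at 68.5 and 103 TPM, lay just under 1.5-fold as reported (0.582). With a pseudocount of 0.1 it passed that limit, and 2 genes of the list were at least 1.5-fold higher.

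Clock output genes, whose transcripts cycle in several mouse tissues, differed in both directions. As reported 12 were above 0 and 4 below (64.9% of all genes were above 0). The lowest difference was that of Por, at 93.1 and 70.3 TPM (-0.40). Of 16 genes 5 were higher and none lower by 1.5-fold or more (background 15.4% and 4.73%), and the median of 0.13 was close to that of all genes. Coq10b, which encodes a mitochondrial coenzyme Q binding protein, was at 16.7 and 31.8 TPM, a difference of 0.89. Usp2, a ubiquitin protease with a strongly cycling transcript, was at 16.9 and 29.9 TPM, a difference of 0.78. The transcription factor gene Klf15 was at 10.5 and 18.2 TPM, the metabolic kinase gene Pdk4 at 22.7 and 38.1 TPM and the cell cycle kinase gene Wee1, a known target of BMAL1, at 7.87 and 12.9 TPM. These 5 had differences from 0.65 to 0.89, between those of Dbp and Per3. The most abundant genes of the list differed less, with Cdkn1a at 514 and 681 TPM and the cold-induced Rbm3 at 280 and 249 TPM, and 4 of the 16 changed sign between scalings. Under quantile normalization 2 of the 16 were at least 1.5-fold higher.

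Per1 is also induced by glucocorticoids and by cyclic AMP signalling, so the genes of both responses were read beside it. Of 15 glucocorticoid response genes 5 were higher and none lower by 1.5-fold or more (background 15.4% and 4.73%), with a median of 0.26. Under quantile normalization 4 were higher and 1 lower. Fkbp5, a chaperone gene widely used as a readout of this hormone, was at 24.9 and 44.4 TPM, a difference of 0.81, and Zbtb16 was at 12.3 and 23.1 TPM, a difference of 0.86. The metallothioneins Mt1 (141 and 237 TPM) and Mt2 (165 and 576 TPM), which metals and inflammation also induce, were higher too, and Pdk4 is on this list as well. Nr3c1, the glucocorticoid receptor, was at 44.0 and 35.7 TPM, and the classical targets Tsc22d3 (105 and 126 TPM) and Sgk1 (69.3 and 60.2 TPM) did not reach 1.5-fold. In all 10 genes were above 0 and 5 below, near the 64.9% of all genes above 0. Of 15 immediate early and CREB target genes 2 were at least 1.5-fold higher and 1 lower (background 15.4% and 4.73%), with a median of 0.22, so the higher count was near the background. It was 1 under quantile normalization, with centring on the median and with a pseudocount of 5. Egr2 was at 12.4 and 27.3 TPM, a difference of 1.07, and the stress-induced Ier3 at 28.0 and 44.2 TPM, a difference of 0.64. Nr4a1, a quickly induced nuclear receptor gene, was lower at 35.0 and 20.8 TPM, a difference of -0.72. The abundant Dusp1 (158 and 174 TPM) and Egr1 (132 and 158 TPM) differed by 0.14 and 0.26.

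**Figure D4:**
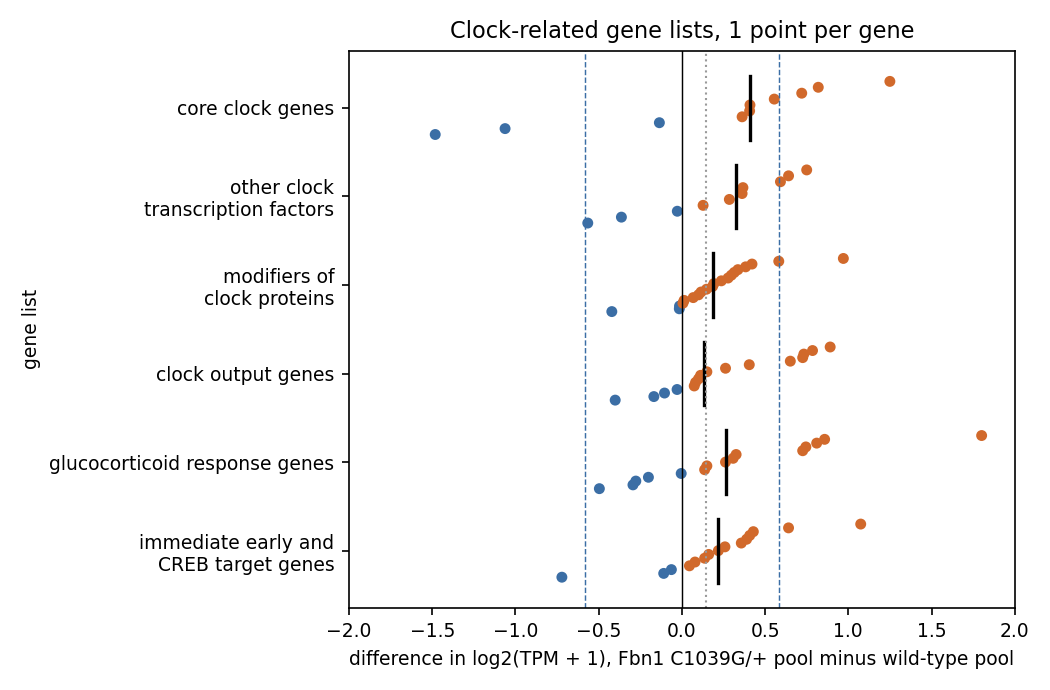
Difference in log2(TPM + 1), Fbn1 C1039G/+ pool minus wild-type pool, with 1 point per gene for the core clock genes and 5 further lists; black bars are list medians, dashed lines mark 1.5-fold and the dotted line is the median of all genes (0.14). Among the lists drawn the lowest points are Npas2 (-1.48) and Arntl (-1.06), but the core clock genes were chosen by the values of these same libraries. The medians of the 5 further lists lie between 0.13 and 0.32.

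Markers of several other cell types differed between the pools along with the clock genes, and in bulk RNA fewer cells of a type and less RNA per cell cannot be told apart. Valve fibroblast markers were present in both pools, with all 9 above a mean of 1 TPM and none 2-fold different. Of these 2 were at least 1.5-fold higher, Postn (1269 and 2263 TPM) and Tbx20 (703 and 1253 TPM), and the sum of 18883 and 18715 TPM was mostly Dcn (11409 and 9304 TPM). None of the 7 endothelial markers reached 1.5-fold. At 2-fold the background for the counts that follow is 1.72% lower and 4.81% higher. Of 8 T cell markers 5 were at least 2-fold lower, with a sum of 96.1 and 57.9 TPM, although Cd3d was at 19.7 and 26.9 TPM. Red blood cell markers (4 of 5 at least 2-fold lower, sum 6801 and 687 TPM) and cardiac muscle markers (1 of 10, sum 2940 and 2056 TPM) had lower sums as well. Of 7 lymphatic endothelial markers 3 were at least 2-fold lower, with a sum of 373 and 213 TPM. Its largest part was Ccl21a (244 and 94.3 TPM). Prox1 (-0.23), Flt4 (-0.27) and Pdpn (-0.19) did not reach 1.5-fold, and Lyve1 was higher, at 44.7 and 58.8 TPM. Of 8 neutrophil markers 4 were at least 2-fold higher, namely S100a8, S100a9, Csf3r and Cxcr2, which carried the sum of 18.5 and 104 TPM. Camp (-0.35), Retnlg (-0.05) and Mpo (0.13) were near level or lower, and Ly6g was listed at 0 in both pools. Of 8 monocyte and macrophage markers 1 was at least 2-fold higher, with a sum of 1566 and 1927 TPM. Of 6 adipocyte markers Lep was listed at 0 in both pools and Adipoq and Cidec in the heterozygous pool, and the sum of 25.8 and 16.2 TPM was mostly Fabp4 (23.6 and 14.7 TPM). The part of these cells in the differences of the clock genes was not tested.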

How the data were processed

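Per the file header the deposited table holds 1 TPM value, computed by the authors, per gene symbol and library (column sums 999964 and 999945). Trimmomatic, HISAT2, kallisto and the mm10 genome are named, per the submitters' processing notes. How transcripts and strands were counted, with which annotation and tool versions, was not given in the sources used here. Per the labels' protocols RNA was amplified (Ovation RNAseq v2) before Nextera XT library preparation. Reads of amplified RNA are not independent molecules, and TPM keeps no depth, so depth is unknown and no interval was computed.

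Differences were taken on log2(TPM + 1), with a pseudocount of 1, among genes averaging 1 TPM or more. Genes at least 2-fold or 1.5-fold different on that scale were counted, with Python 3.11.15 and pandas 2.3.3. No statistical test was possible with 1 library per genotype. Members and lists were chosen with earlier results of these data known. All 10 members were named. From each further clock-related list the rule named the 2 most abundant genes and up to 8 genes at least 1.5-fold different averaging 5 TPM or more. Bhlhe41, Hlf, Nfil3, Rora, Rorb, Ciart, Nr3c1, Tsc22d3, Sgk1, Fbxl21, Csnk1e, Por, Thra, Sphk2 and the single cell type markers were named outside it, after their values were seen. A further item of these lists is not reported here. Coordinates are from GENCODE release M21 and promoter windows from RefSeq GRCm38.p6. Alternatives were pseudocounts of 0.1 and 5, no filter on low values, a filter at a mean of 5 TPM, subtraction of the median difference of genes averaging 10 TPM or more, quantile normalization, and removal of predicted, Rik, globin, ribosomal protein and mitochondrial genes with rescaling.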

Additional observations from a re-analysis of the deposited data

How the results depend on the processing

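Of 69 recomputed differences of the 10 clock genes under 7 alternatives, 65 kept their direction and their side of both 2-fold and 1.5-fold, and 4 kept the direction but crossed 1 of these limits. This tally includes outcomes that were fixed in advance. A change of the filter on low values leaves the difference of a gene as it was. A change of pseudocount can alter its size but not its direction. With a pseudocount of 5, which shrinks low genes, Arntl (-0.83) and Npas2 (-0.93) were no longer 2-fold lower, so 0 clock genes were at least 2-fold lower, and Per2 (0.58) was below 1.5-fold. The fourth was Per1 under quantile normalization (0.57). Cry1 had no value with a mean TPM of at least 5. Counts over all genes moved more. With a pseudocount of 0.1 there were 1264 genes at least 2-fold higher and 464 lower. With a pseudocount of 5 there were 209 and 87, and 1172 and 358 at 1.5-fold. Without a filter 1230 were at least 1.5-fold lower. With a mean TPM of at least 5, where fewer genes were counted, there were 360 higher and 103 lower at 2-fold, and 1530 and 399 at 1.5-fold. Quantile normalization gave 540 and 462 at 2-fold, and 1503 and 1409 at 1.5-fold. It turned the median of all genes to -0.014 and the log2 change of the ratio of Cry2 to Cry1 to 0.061. Removal of predicted, Rik, globin, ribosomal protein and mitochondrial genes gave 499 at least 2-fold higher. The causes of these shifts were not tested. No replicate could be left out with 1 library per genotype. No paired analysis was possible because each genotype has 1 library. The depth of the libraries is unknown, so how far counting error limits low members such as Cry1 and Npas2 cannot be given.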
